A study of Mus musculus with 20 samples.

Results

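The 10 genes described here encode the lymphocyte recombinase (Rag1 and Rag2), the terminal transferase that works beside it (Dntt) and the enzymes of non-homologous end joining (Xrcc5, Xrcc6, Prkdc, Dclre1c, Lig4, Xrcc4 and Nhej1). They were chosen by their known role, matched from symbol to mouse Ensembl identifier, and are 10 of the 56239 genes in the count table. Chromatin-associated RNA, the newly made RNA that still sits on chromatin, was sequenced from B3 cells (mouse pre-B, an established line) at 10 time points with 2 replicates each. All 20 libraries came from B3 cells that carried a retrovirally delivered Ikaros-ERt2 fusion, a form of IKZF1 that enters the nucleus when 4-hydroxytamoxifen (4-OHT) is added. The libraries at 0 h were made from cells without 4-OHT, and those at 30 min, 1 h, 2 h, 6 h, 12 h, 15 h, 18 h, 21 h and 24 h from cells kept in 500 nM 4-OHT. No library of cells given 4-OHT without Ikaros-ERt2 was used here, so effects of 4-OHT itself and of the fusion cannot be told apart, and no labelled group shows how time in culture alone changes these genes.

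V(D)J recombination builds antigen receptor genes in developing lymphocytes. The RAG1 and RAG2 proteins form the recombinase that cuts DNA beside receptor gene segments, and the broken ends are closed by non-homologous end joining. In that pathway the Ku heterodimer of XRCC5 (Ku80) and XRCC6 (Ku70) binds the ends, the kinase DNA-PKcs (Prkdc) and the nuclease Artemis (Dclre1c) open the hairpins left by the recombinase, terminal transferase (Dntt) adds nucleotides without a template, and DNA ligase IV (Lig4) seals the ends together with XRCC4 and XLF (Nhej1). Pre-B cells are the stage at which light chain genes are rearranged, and IKZF1 is a zinc-finger DNA-binding protein that B cell development needs.

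Total counts ran from 33296158 to 46868954 per library, and 16601 genes had at least 10 counts in at least 2 libraries and were tested. Levels are given as CPM, counts scaled to a common library size with TMM factors. Differences were tested with edgeR's quasi-likelihood test against 0 h, with Benjamini-Hochberg adjustment over all genes tested, and a gene was called where the adjusted p was under 0.01 and the fold change over 2. The libraries held the RNA of B lineage cells, as labelled. The 9 B lineage markers summed to between 8130 and 16600 CPM per library, and none was at 0 in all libraries. Most of that sum came from Ebf1 and Pax5, with means of 9410 and 2020 CPM over all libraries. At 24 h 5 of the 9 were called up against 0 h (20% of all genes tested) and 2 down (20.1%). The 2 were Igll1, from 169 CPM at 0 h to 0.985 CPM at 24 h, and Vpreb1, from 17.6 to 0.37 CPM. Vpreb2 averaged 0.217 CPM. The markers of other lineages summed to at most 0.799 CPM for 5 T cell, 1.70 CPM for 5 myeloid, 0.763 CPM for 4 erythroid and 0.803 CPM for 3 NK cell markers. Among the defining markers of other lineages, Itgam was listed at 0 counts in every library. Whether another gene overlaps Itgam is not given here, so this 0 is not read as a level. The labels do not say whether the 2 libraries of a time point were separate cultures, so the p-values measure only the spread between these libraries. In bulk RNA, fewer cells of a type and less RNA per cell cannot be told apart.

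Dntt, Xrcc5, Lig4 and Nhej1 had the largest differences from 0 h within 1 h of 4-OHT, in either direction, and their promoter windows are printed for that reason. These 4 were chosen after their values were seen. Each window runs from 250 bases before to 50 bases after the RefSeq start, on the gene's strand of GRCm38.p6, and capitals mark GGGAA, the core of the sequence that Ikaros binds, or TTCCC, the same letters on the other strand.
Dntt, chr19:41029025-41029324, plus strand: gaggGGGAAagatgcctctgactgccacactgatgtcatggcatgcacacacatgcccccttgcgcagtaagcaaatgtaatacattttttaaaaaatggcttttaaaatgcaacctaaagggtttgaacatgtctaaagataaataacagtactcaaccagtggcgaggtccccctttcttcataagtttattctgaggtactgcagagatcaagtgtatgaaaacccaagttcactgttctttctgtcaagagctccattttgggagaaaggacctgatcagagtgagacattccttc
Xrcc5, chr1:72307171-72307470, plus strand: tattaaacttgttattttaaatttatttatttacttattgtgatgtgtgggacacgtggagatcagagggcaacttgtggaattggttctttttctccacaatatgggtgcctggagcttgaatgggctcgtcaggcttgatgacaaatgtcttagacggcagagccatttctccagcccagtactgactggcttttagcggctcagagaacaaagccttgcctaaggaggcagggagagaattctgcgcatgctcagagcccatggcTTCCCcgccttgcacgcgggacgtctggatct
Lig4, chr8:9977631-9977930, minus strand: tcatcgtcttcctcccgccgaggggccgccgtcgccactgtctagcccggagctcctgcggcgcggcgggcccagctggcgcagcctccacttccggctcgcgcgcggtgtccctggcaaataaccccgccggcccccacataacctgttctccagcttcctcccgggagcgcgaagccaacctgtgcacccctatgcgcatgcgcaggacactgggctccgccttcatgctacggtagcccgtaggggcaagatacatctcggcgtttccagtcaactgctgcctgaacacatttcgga
Nhej1, chr1:75125177-75125476, minus strand: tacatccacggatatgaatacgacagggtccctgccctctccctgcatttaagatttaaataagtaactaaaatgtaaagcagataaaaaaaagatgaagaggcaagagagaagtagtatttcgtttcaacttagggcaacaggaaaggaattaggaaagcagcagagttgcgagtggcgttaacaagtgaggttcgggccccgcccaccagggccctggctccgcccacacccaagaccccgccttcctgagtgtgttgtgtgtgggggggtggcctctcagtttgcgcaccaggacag

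The Dntt window held 1 match and the Xrcc5 window 1. The Lig4 and Nhej1 windows shown held 0, and a further RefSeq window of Lig4, 1375 bases from the annotated gene start, held 1. Windows were found for 9 of the 10 genes, and 8 of these 9 had a match in at least 1 window, among them Rag1 and Rag2 with 1 each and Xrcc6 with 2 in a window whose start lies 28534 bases from the annotated gene start. Xrcc4 and Dclre1c also had 1 each. Matches were thus found in genes that fell (Dntt and Xrcc5) and in genes that were higher at 24 h than at 0 h. The latter were Xrcc6 (log2 fold change 1.34), Xrcc4 (1.06), Dclre1c (0.49) and, in its further window, Lig4 (2.58). GGGAA or TTCCC occurred in 62.7% of all 32851 windows of this length, so the share among these genes says little about them.

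Rag1 and Rag2, the genes of the recombinase itself, were listed at 0 counts in all 20 libraries. Both lie entirely inside another annotated gene, B230118H07Rik (chr2:101560781-101649532, minus strand, GRCm38). Rag1 (chr2:101638282-101649501) lies on the same strand as that gene and Rag2 (chr2:101624718-101632529) on the opposite strand. No base of either gene was free of the overlap. Over the whole table, 12795 of 12834 genes that were wholly covered by other genes were also at 0 in all 20 libraries (99.7%), against 37.31% of the 30194 genes that overlapped none. The share was 99.97% for genes inside a gene of the same strand and 99.9% for genes inside a gene of the opposite strand, so it did not depend on strand. Among protein-coding genes it was 97.77% of 1256 covered genes, against 18.86% of 11899 without an overlap. The listed zeros of Rag1 and Rag2 therefore cannot be read as levels, no limit on their RNA was computed from them, and neither gene could be tested.

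The same overlap reached other genes of the pathway. Only 20.9% of the Xrcc6 gene body (10.9 of 52.3 kb) lay outside Desi1, a gene on the opposite strand that sits inside Xrcc6 and was itself at 0 counts throughout. For Xrcc4 the unshared part was 64.0% (201.9 of 315.6 kb), and for Dclre1c it was 79.2% (31.7 of 40.0 kb). Prkdc was 99.9% unshared, and Dntt, Lig4, Xrcc5 and Nhej1 overlapped no counted gene. The values of Xrcc6, Xrcc4 and Dclre1c below are thus values of parts of these genes.

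**Figure D1:**
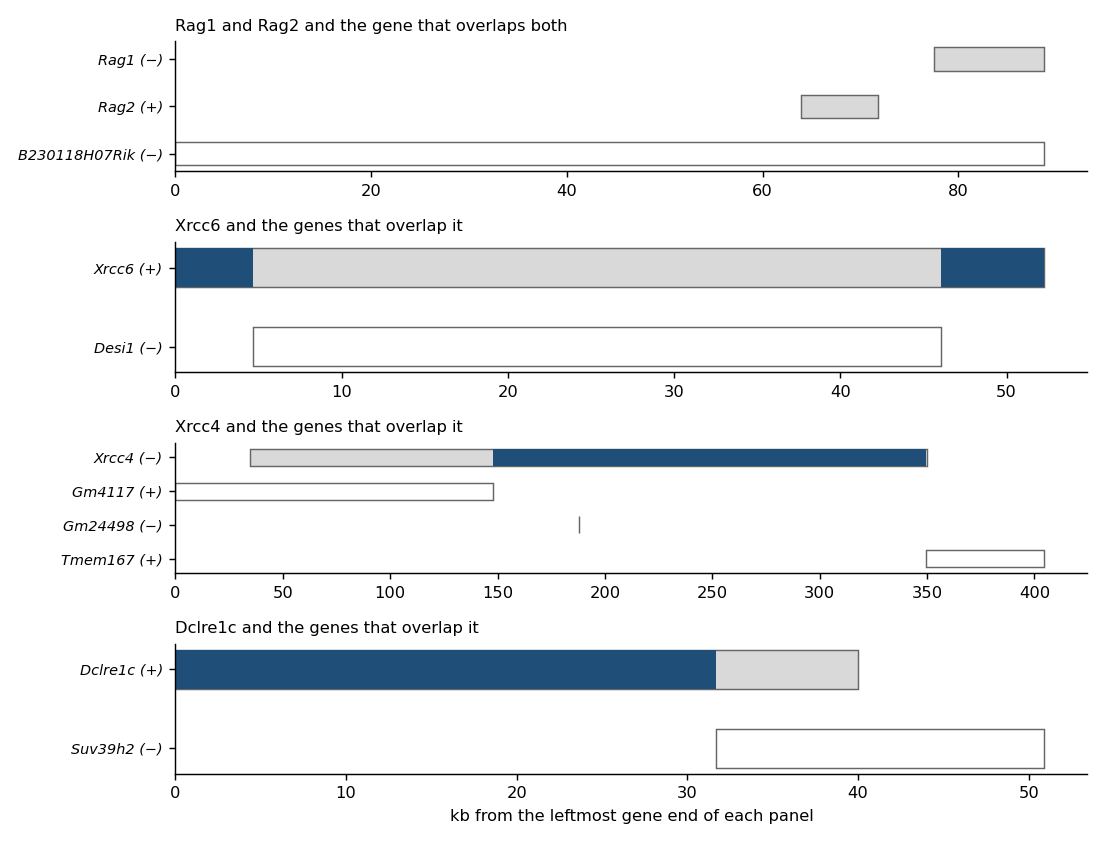
Maps of Rag1 and Rag2, Xrcc6, Xrcc4 and Dclre1c with the annotated genes that overlap them, in kb from the leftmost gene end of each panel, with the strand in brackets. Dark blue marks the part of a described gene that no other gene covers, grey the part that is shared, and white the overlapping genes. Rag1 and Rag2 are grey over their full length, while 20.9% of Xrcc6, 64.0% of Xrcc4 and 79.2% of Dclre1c are dark.

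The chromatin-associated RNA around the recombinase genes was higher than at 0 h from 1 h on and had its highest levels from 18 h on. B230118H07Rik, which could be counted only outside Rag1 and Rag2, stood at 7.91 and 8.80 CPM at 0 h and 13.3 and 11.8 CPM at 2 h. It was at 16.7 and 15.4 CPM at 6 h, 19.3 and 17.4 CPM at 12 h and 18.6 and 20.2 CPM at 15 h. It then stood at 31.5 and 35.8 CPM at 18 h and 36.4 and 33.9 CPM at 24 h. The libraries of 18 h, 21 h and 24 h did not overlap with any earlier one. Its log2 fold change was 0.37 ± 0.101 (SE) at 1 h (adjusted p = 0.00493), 1.13 ± 0.0968 at 12 h (adjusted p = 1.02e-09) and 2.07 ± 0.0917 at 24 h, a 4.20-fold rise (edgeR's quasi-likelihood test, adjusted p = 5.62e-15). Traf6, a signalling adaptor and the nearest tested gene on the other side of Rag1 at a distance of 28927 bp, went from 40.7 and 40.3 CPM at 0 h to 170 and 171 CPM at 24 h (log2 fold change 2.07 ± 0.0543, adjusted p = 5.29e-19). Traf6 had already passed the test at 1 h, at 0.60 ± 0.0551 (adjusted p = 9.69e-09). Its rise was not steady, with 95.7 and 97.7 CPM at 6 h, 82.5 and 76.2 CPM at 12 h and 92.7 and 96.2 CPM at 15 h. These values belong to the neighbours and give no level of Rag1 or Rag2.

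Dntt (chr19:41029275-41059525), whose product terminal transferase writes the untemplated nucleotides of receptor joints, fell within 1 h and then partly came back. It stood at 6.81 and 5.70 CPM at 0 h, 4.09 and 4.23 CPM after 30 min, 1.57 and 1.79 CPM after 1 h, 1.30 and 1.20 CPM after 2 h and 1.47 and 1.44 CPM after 6 h. The 3 time points from 1 h to 6 h held the 6 lowest libraries of the series, with no overlap with any other time point. The level was higher again from 12 h on, with 4.08 and 3.74 CPM at 12 h, 3.09 and 3.57 CPM at 15 h and 4.81 and 5.50 CPM at 18 h. It was 5.50 and 4.64 CPM at 21 h and 4.15 and 3.72 CPM at 24 h. No library of this later span reached the lower value of 0 h.

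The log2 fold change of Dntt against 0 h was -1.90 ± 0.130 at 1 h (adjusted p = 8.5e-11) and -2.32 ± 0.142 at 2 h, a 4.99-fold fall (adjusted p = 7.26e-12). The return was concentrated between 6 h and 12 h, where Dntt rose by 1.42 ± 0.151 on the log2 scale (adjusted p = 1.68e-07), and between 15 h and 18 h, where it rose by 0.62 ± 0.122 (adjusted p = 0.000335). Over the whole table the libraries of 12 h and of 18 h differed most within a time point. Their chi-square per degree of freedom was 9.8 and 14.9, against 1.43 at 6 h and 1.77 at 15 h. The spread used in the test was estimated over all 20 libraries together, for Dntt as for the other genes below. At 18 h and 21 h the difference from 0 h was -0.28 and -0.31 and missed the threshold (adjusted p = 0.0201 and 0.0149). Both passed with library totals in place of TMM factors (-0.41 and -0.55, adjusted p = 0.00148 and 0.000142) and without 0 h replicate 2 (adjusted p = 0.00518 and 0.0039). The value at 18 h also passed without 18 h replicate 2 (adjusted p = 0.00952), and that at 21 h without 21 h replicate 1 (adjusted p = 0.00761). At 24 h it was -0.67 ± 0.116 (adjusted p = 2e-05). At 24 h Dntt was 1.65 ± 0.160 above 2 h on the log2 scale (adjusted p = 6.04e-09). The counts behind these values were low, from 50 to 315 per library. At 30 min Dntt passed the test at -0.59 ± 0.111 (adjusted p = 0.000835), but not when 0 h replicate 1 was left out (-0.45, adjusted p = 0.0362), nor without 30 min replicate 1 (-0.56, adjusted p = 0.0139) or replicate 2 (-0.61, adjusted p = 0.0126).

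**Figure D2:**
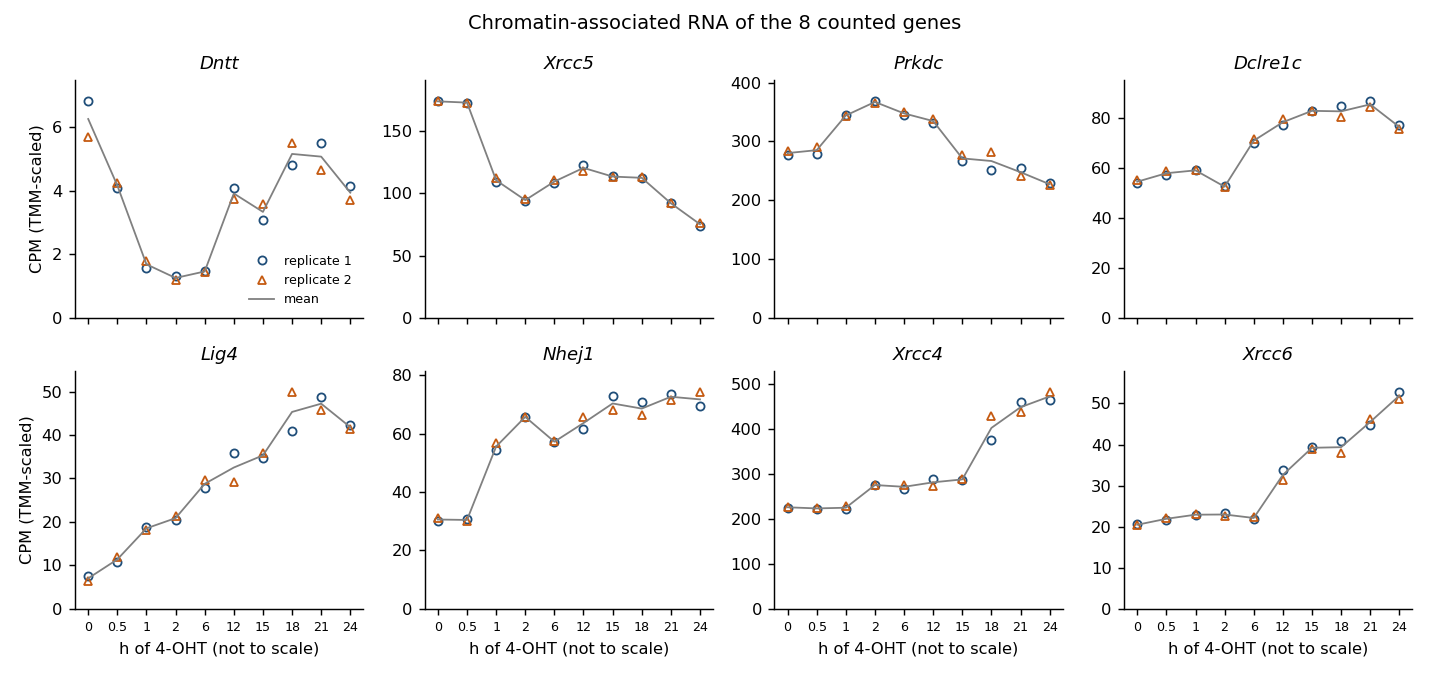
Level of the 8 counted genes in TMM-scaled CPM (vertical axes from 0, each gene on its own scale) against hours of 4-OHT (horizontal axis, evenly spaced and not to scale), with circles for replicate 1, triangles for replicate 2 and a line through the means. Dntt has its lowest levels at 1 h to 6 h, and Xrcc5 fell from 1 h. Lig4 was higher than at 0 h from 30 min on and Nhej1 from 1 h on. Xrcc6 and Xrcc4 have their steepest rise between 6 h and 18 h.

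The genes of the Ku subunits moved in opposite directions and at different times. Xrcc5 (chr1:72307421-72394952) stood at 174 CPM in both libraries at 0 h and at 173 CPM in both at 30 min, then at 109 and 112 CPM at 1 h and at 93.9 and 95.2 CPM at 2 h. It was at 123 and 118 CPM at 12 h and ended at 92.1 and 92.0 CPM at 21 h and 74.1 and 76.2 CPM at 24 h, the lowest libraries of the series. None of the 16 libraries from 1 h on overlapped with those of 0 h and 30 min. Between 30 min and 1 h Xrcc5 fell by 0.64 on the log2 scale (SE 0.0348, adjusted p = 3.5e-12). Against 0 h it was at -0.88 ± 0.0351 at 2 h (adjusted p = 5.63e-15) and at -1.21 ± 0.0359 at 24 h, a 2.31-fold fall (adjusted p = 4.78e-18). Between these 2 falls Xrcc5 rose by 0.21 ± 0.0354 from 2 h to 6 h (adjusted p = 6.01e-05) and by 0.14 ± 0.0352 from 6 h to 12 h (adjusted p = 0.00369).

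Xrcc6 (chr15:81987835-82040085) changed only later. It lay at 20.6 and 20.3 CPM at 0 h and between 21.6 and 23.2 CPM in the 8 libraries from 30 min to 6 h. It then stood at 33.8 and 31.4 CPM at 12 h, at 39.4 and 39.0 CPM at 15 h and at 52.7 and 51.1 CPM at 24 h, and the 10 libraries from 12 h on lay above all earlier ones. The rise from 6 h to 12 h was 0.56 ± 0.0533 on the log2 scale (adjusted p = 3.55e-08). At 24 h Xrcc6 was 2.54-fold above 0 h (log2 fold change 1.34 ± 0.0522, adjusted p = 5.62e-16). Before 12 h no difference of Xrcc6 from 0 h passed the test, with values from 0.10 to 0.17 and the smallest adjusted p, 0.0129, at 2 h. The value at 2 h passed with DESeq2 size factors (0.17, adjusted p = 0.00977), with a filter of 10 counts in every library (0.18, adjusted p = 0.00648) and without any 1 library of 12 h or 18 h (adjusted p from 0.00665 to 0.00827), and the value at 1 h passed without either library of 18 h (adjusted p = 0.00855).

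Within each library the ratio of Xrcc5 counts to Xrcc6 counts, which no scaling of libraries affects, was 8.43 and 8.56 at 0 h, 7.97 and 7.77 after 30 min, 4.79 and 4.84 after 1 h and 4.05 and 4.18 after 2 h. After 6 h it was 4.92 and 4.96, after 12 h 3.63 and 3.75, after 15 h 2.90 in both libraries, after 18 h 2.75 and 2.99, after 21 h 2.06 and 1.99 and after 24 h 1.41 and 1.49. It fell early as Xrcc5 fell, and late as Xrcc6 rose and Xrcc5 fell again. The ratio compares counts over unshared gene parts of different length, so it tracks the change in balance and not the number of molecules, and it was given no test of its own.

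**Figure D3:**
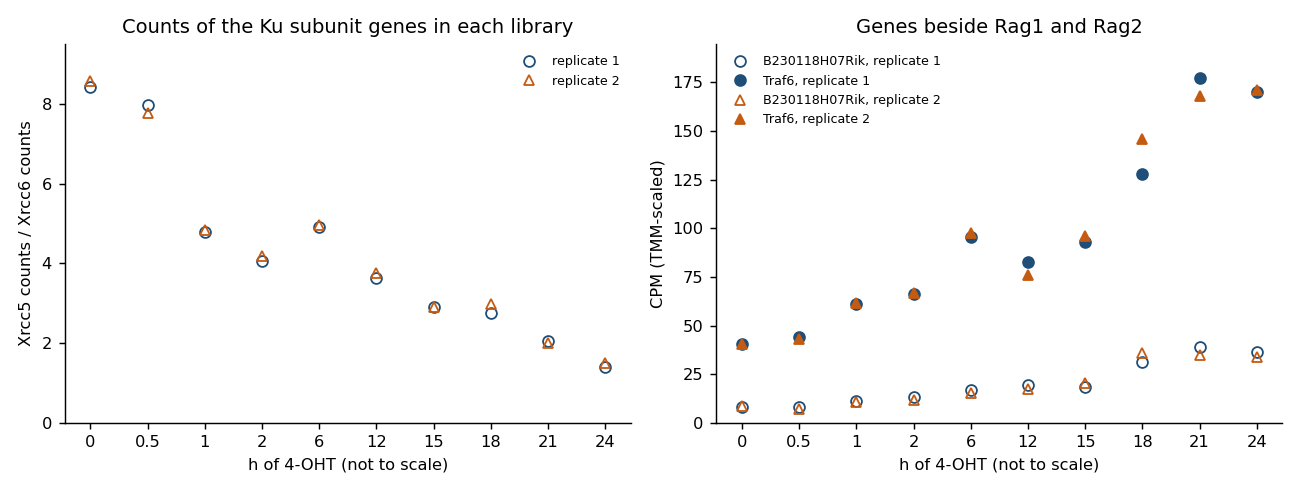
Left, counts of Xrcc5 divided by counts of Xrcc6 in each library (vertical axis, from 0) against hours of 4-OHT (not to scale), circles for replicate 1 and triangles for replicate 2, going from 8.43 and 8.56 at 0 h to 1.41 and 1.49 at 24 h. Right, TMM-scaled CPM of the genes beside Rag1 and Rag2, B230118H07Rik (open symbols) and Traf6 (filled symbols), which reached 36.4 and 33.9 CPM and 170 and 171 CPM at 24 h.

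Prkdc, the gene of the DNA-PK catalytic subunit that Ku recruits to DNA ends, changed little and in both directions. It stood at 277 and 283 CPM at 0 h, 345 and 343 CPM at 1 h and 368 and 366 CPM at 2 h. It was still at 331 and 338 CPM at 12 h, then at 266 and 276 CPM at 15 h and 229 and 225 CPM at 24 h. The 8 libraries of 1 h to 12 h lay above all others, and the 2 of 24 h below all others. Its log2 fold change was 0.39 ± 0.0434 at 2 h (adjusted p = 1.04e-07) and -0.30 ± 0.0439 at 24 h (adjusted p = 2.09e-06), with a fall of 0.30 between 12 h and 15 h (SE 0.0437, adjusted p = 1.84e-05). Neither direction reached a fold change of 2 against 0 h. The difference at 21 h (-0.18, adjusted p = 0.000878) missed the threshold without 0 h replicate 2 (-0.17, adjusted p = 0.0108) and without 21 h replicate 2 (-0.14, adjusted p = 0.0266). The difference at 18 h (-0.07, adjusted p = 0.13) passed with library totals (-0.20, adjusted p = 4.68e-05) and without 18 h replicate 2 (-0.16, adjusted p = 0.000763), and was 0.01 without 18 h replicate 1.

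Dclre1c, the gene of the Artemis nuclease, rose after 2 h and stayed below the fold threshold throughout. It was at 53.8 and 55.2 CPM at 0 h, 52.8 and 52.2 CPM at 2 h and 70.1 and 71.8 CPM at 6 h. Later it was at 82.9 CPM in both libraries at 15 h, at 86.7 and 84.3 CPM at 21 h and at 77.1 and 75.8 CPM at 24 h. All libraries from 6 h on lay above all earlier ones. The step from 2 h to 6 h was 0.43 ± 0.0409 on the log2 scale (adjusted p = 2.55e-08), and the difference from 0 h was largest at 21 h, at 0.65 ± 0.0408 (adjusted p = 3.1e-12).

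The genes of the ligation step all rose, each with its own timing. Lig4 (chr8:9969049-9977686), the gene of the ligase that seals the ends, rose most of the 8 counted genes. It stood at 7.56 and 6.42 CPM at 0 h, 10.7 and 12.0 CPM at 30 min, 18.9 and 18.1 CPM at 1 h, 20.4 and 21.3 CPM at 2 h and 27.9 and 29.6 CPM at 6 h. It reached 35.9 and 29.1 CPM at 12 h, 34.7 and 35.9 CPM at 15 h, 40.8 and 49.8 CPM at 18 h, 48.7 and 45.7 CPM at 21 h and 42.2 and 41.4 CPM at 24 h. Up to 6 h the libraries of each time point lay above those of the time point before, while the ranges of 6 h and 12 h, of 12 h and 15 h and of 18 h and 21 h overlapped. The log2 fold change was 1.40 ± 0.112 at 1 h (adjusted p = 9.13e-10), 2.04 ± 0.107 at 6 h (adjusted p = 3.63e-13) and 2.58 ± 0.106 at 24 h, a 5.97-fold rise (adjusted p = 1.48e-15). The rise at 30 min (0.70 ± 0.120, adjusted p = 3e-04) was lost without 0 h replicate 2 (0.59, adjusted p = 0.0136) or without 30 min replicate 2 (0.61, adjusted p = 0.0141).

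Nhej1 (chr1:74967139-75125200), which encodes XLF, a partner of XRCC4, moved mostly between 30 min and 1 h. It was at 29.9 and 31.2 CPM at 0 h and 30.6 and 30.2 CPM at 30 min, then at 54.5 and 56.6 CPM at 1 h and 65.7 CPM in both libraries at 2 h. It lay between 57.0 and 74.1 CPM in the 12 libraries from 6 h on. The libraries before 1 h did not overlap with those from 1 h on. Between 30 min and 1 h it rose by 0.87 ± 0.0527 on the log2 scale (adjusted p = 2.2e-11). It rose by a further 0.24 ± 0.0498 from 1 h to 2 h (adjusted p = 7e-04) and changed by -0.20 ± 0.0497 from 2 h to 6 h (adjusted p = 0.00243). Its log2 fold change was 1.11 ± 0.0520 at 2 h (adjusted p = 8.84e-14) and 1.23 ± 0.0522 at 24 h (adjusted p = 2.65e-15). The difference between 24 h and 2 h did not pass the test (0.13 ± 0.0497, adjusted p = 0.0276).

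Xrcc4 (chr13:89774027-90089608), the scaffold that holds the ligase, moved mostly after 15 h. It stood at 224 and 227 CPM at 0 h, 221 and 228 CPM at 1 h, 274 and 276 CPM at 2 h and 286 and 289 CPM at 15 h. It stood at 375 and 429 CPM at 18 h, 459 and 437 CPM at 21 h and 463 and 481 CPM at 24 h, and these 6 libraries lay above all earlier ones. The step from 1 h to 2 h was 0.29 ± 0.0474 on the log2 scale (adjusted p = 6.45e-05) and the step from 15 h to 18 h was 0.48 ± 0.0471 (adjusted p = 8.88e-08). At 24 h Xrcc4 was 2.09-fold above 0 h (log2 fold change 1.06 ± 0.0475, adjusted p = 6.66e-15). The 2 libraries of 18 h differed more than those of other time points over the whole table, with a chi-square per degree of freedom of 14.9 against 1.25 at 2 h.

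With libraries scaled by their totals alone instead of TMM factors, the median log2 fold change of all genes at 24 h was -0.27 instead of -0.01. The rises of Xrcc4 and Nhej1 at 24 h were then 0.81 and 0.97, under the fold threshold with adjusted p of 1.05e-13 and 1.79e-12, while Lig4 (2.32) and Xrcc6 (1.09) stayed over it and Xrcc5 was at -1.47. Of the 8 counted genes, 4 were thus called up and 1 down at 24 h with TMM factors, and 2 up and 1 down with library totals.

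Over the whole time course, 6 of the 8 counted genes were called (Dntt, Lig4, Xrcc4, Xrcc5, Xrcc6 and Nhej1) and Prkdc and Dclre1c were not, beside 51.9% of all genes tested. At 1 h, 1 of the 8 was called down (Dntt, against 4.84% of all genes) and 1 up (Lig4, against 2.33%). At 2 h the numbers were 1 down (6.91% of all genes) and 2 up (6.25%), the latter being Lig4 and Nhej1. At 24 h they were 1 down (Xrcc5, 20.1% of all genes) and 4 up (Lig4, Xrcc6, Nhej1 and Xrcc4, 20%). The median log2 fold change of the 8 was 0.23 at 2 h and 0.78 at 24 h, against 0.03 and -0.01 for all genes tested.

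At the time points between, 1 of the 8 was called down at 6 h (Dntt, 9.13% of all genes) and 1 up (Lig4, 10.9%). Lig4 and Nhej1 were the 2 called up at 12 h (13.2% of all genes), 15 h (15.3%) and 18 h (19.1%), joined by Xrcc6 to make 3 at 21 h (20.1%). Xrcc4, at 0.99 close to the fold threshold, made 4 at 21 h with DESeq2, with its size factors, with the filter of 10 counts in every library and without 21 h replicate 2, and with library totals the number was 2. Over these 4 time points the share of all genes called down was 9.92%, 13.1%, 17.6% and 19.4%. At 30 min edgeR called 0 of the 8 in either direction, as did DESeq2 (0.41% of all genes down and 0.0542% up by edgeR). Of the 8, 3 had an unadjusted p under 0.05 in edgeR's test. The share of all genes under that looser limit is not given here, so this number cannot be set against the shares of genes called. From 12 h to 21 h Dntt and Xrcc5 were below 0 h by less than the fold threshold, with log2 fold changes from -0.28 to -0.92.

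By the test alone, without the fold threshold, 1 of the 8 was lower and 1 higher after 30 min (4.74% and 3.70% of all genes), 2 lower and 3 higher after 1 h (17.1% and 19.2%), 2 lower and 4 higher after 2 h (23.8% and 23.9%) and 2 lower and 5 higher after 6 h (27.3% and 30.0%). After 12 h the numbers were 2 lower and 6 higher (29.5% and 31.2%), after 15 h 2 and 5 (32.6% and 33.1%), after 18 h 1 and 5 (36.0% and 35.3%), after 21 h 2 and 5 (36.0% and 35.7%) and after 24 h 3 and 5 (36.1% and 35.4%). All 8 passed the test of the whole time course, as did 88.0% of all genes, so passing it sets none of them apart.

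Dntt was the gene that passed the fold threshold between successive time points, falling from 30 min to 1 h and rising from 6 h to 12 h (1 of the 8 in each, beside 4.76% and 4.79% of all genes in either direction). At the other steps the share of all genes called was 2.62% from 1 h to 2 h, 7.17% from 2 h to 6 h, 0.717% from 12 h to 15 h, 1.1% from 15 h to 18 h, 0.651% from 18 h to 21 h and 0.247% from 21 h to 24 h. By the test alone 5 of the 8 changed from 30 min to 1 h (32.0% of all genes), 4 from 1 h to 2 h (22.3%), 4 from 2 h to 6 h (34.4%) and 4 from 6 h to 12 h (27.5%). Later steps had 2 from 12 h to 15 h (19.6%), 3 from 15 h to 18 h (29.1%), 2 from 18 h to 21 h (12.4%) and 2 from 21 h to 24 h (8.63%). Set against 2 h, the libraries of 24 h had 3 of the 8 called, Lig4, Xrcc6 and Dntt, all higher (32.8% of all genes in either direction, 66.5% by the test alone), and set against 6 h they had 2, Xrcc6 and Dntt (23.7% and 59.5%).

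**Figure D4:**
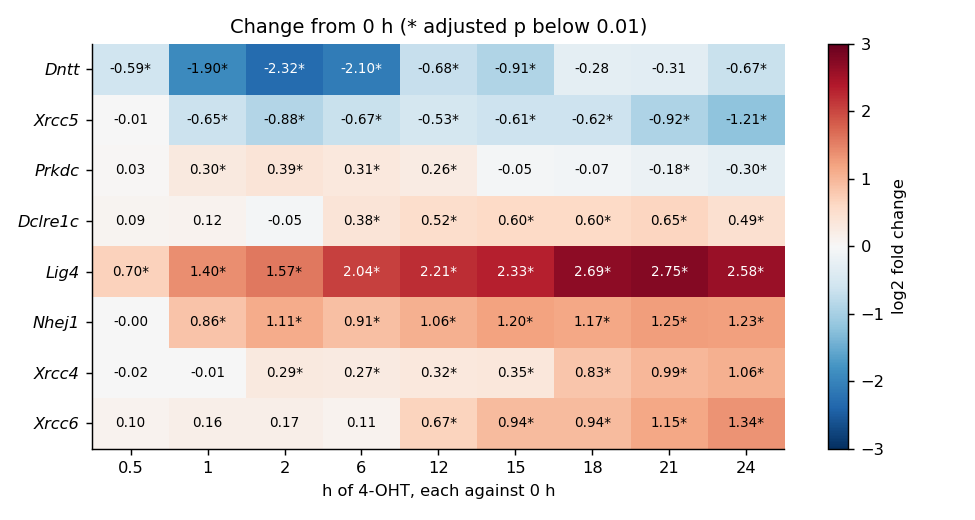
Log2 fold change of each counted gene (rows) at each time point against 0 h (columns, hours of 4-OHT), with blue for lower and red for higher than 0 h and a star where edgeR's adjusted p was below 0.01. Dntt is darkest blue at 2 h (-2.32), Lig4 darkest red at 21 h (2.75), and Xrcc5 and Xrcc6 end at -1.21 and 1.34.

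The 6 called genes were ordered by the time at which the mean log2 level first crossed the midpoint between 0 h and its extreme, interpolated between time points. Dntt crossed at 0.719 h, Nhej1 at 0.863 h, Xrcc5 at 0.962 h and Lig4 at 0.982 h, all between the samples of 30 min and 1 h. With library totals Xrcc5 crossed at 1.3 h, and Lig4 crossed at 1.22 h in the series of replicate 1 and at 1.2 h without 0 h replicate 2. Xrcc6 followed at 12.0 h and Xrcc4 at 16.1 h. For the 2 replicate series taken separately the spread (SD) was 0.0807 h for Dntt, 0.162 h for Lig4 and 0.520 h for Xrcc6, so the order of Xrcc5 and Lig4 was not distinguishable, whereas the gap between the early 4 and Xrcc6 was far over that spread. On a linear CPM scale Lig4 crossed its midpoint at 5.17 h and Dntt at 0.582 h.

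Per kb of unshared gene body, the level at 0 h was 1.98 CPM per kb for Xrcc5 (SD 0.00252, n = 2), 1.87 for Xrcc6 (SD 0.0180), 1.72 for Dclre1c (SD 0.0302), 1.37 for Prkdc (SD 0.0196) and 1.12 for Xrcc4 (SD 0.0117). Lig4 stood at 0.809 CPM per kb (SD 0.0936), and the lowest were Dntt at 0.207 (SD 0.0259) and Nhej1 at 0.193 (SD 0.00575), which did not differ beyond their spread. These values count intronic and exonic reads alike over the gene body. The RefSeq start of Xrcc6 lies 28534 bases inside the GENCODE gene body used here, so its level per kb depends on which start is taken. Dntt, the only counted gene of the set restricted to lymphoid cells, was about as low as Nhej1.

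Several of these genes lie beside another gene whose level moved differently. Lig4 and Abhd13, whose starts face away from each other with a gap of 20 bp, both rose at 2 h (Abhd13 0.77 ± 0.0785, adjusted p = 2.9e-08), whereas at 24 h Abhd13 was at 0.39 ± 0.0806 (adjusted p = 0.000184), against 2.58 for Lig4. Prkdc and Mcm4, a replication helicase subunit 465 bp away, were at -0.30 and -1.33 at 24 h (Mcm4 SE 0.0886, adjusted p = 8.07e-12). Tmem167, which overlaps the start of Xrcc4, was at -0.34 ± 0.0808 at 24 h (adjusted p = 0.000635), and the antisense gene Gm4117, which covers the other end of Xrcc4, was at -1.19 ± 0.0695 (adjusted p = 8.01e-13). Suv39h2, which overlaps the end of Dclre1c, was at -0.66 ± 0.130 (adjusted p = 9.77e-05), and Snu13, 439 bp from Xrcc6, was at 0.24 ± 0.0581 (adjusted p = 0.000873). The change of Slc23a3, 340 bp from Nhej1, did not pass the test (-0.07 ± 0.240, adjusted p = 0.793). Blnk, the gene of a pre-B cell receptor adaptor 34739 bp from Dntt, also fell at 2 h (-1.41 ± 0.0654, adjusted p = 7.05e-14) but was 4.35 ± 0.0529 above 0 h at 24 h (adjusted p = 2.96e-24), where Dntt was at -0.67.

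Among the 5 genes whose mean log2 levels over the 10 time points correlated best with Dntt, of 12048 genes averaging at least 1 CPM, were Map3k20 (Pearson's r = 0.989), Frmd4b (0.976), Pip4p2 (0.974) and Rreb1 (0.962). These are descriptions over 10 time points whose libraries are shared by all genes. On a linear scale Map3k20 and Pip4p2 stayed among the closest 5, and over the 20 single libraries all of the named genes did. Map3k20 shared the shape but less of the size, with a log2 fold change of -0.63 at 2 h against -2.32 for Dntt.

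Other repair pathways were read out beside the end-joining genes. Of 25 other genes of end joining and break signalling, 23 were tested and 11 called over the time course, beside 51.9% of all genes, a share near that of the list. At 24 h 7 were called lower (20.1% of all genes) and 2 higher (20%), with a median of 0.01, near that of all genes. The largest rise was that of Polm, a polymerase related to terminal transferase that fills gaps at joints (2.56 ± 0.0950, adjusted p = 2.52e-16), the other gene called up being Shld1 (2.44), and the largest fall that of Nbn, a subunit of the break-sensing complex with Mre11a (-3.32 ± 0.0760, adjusted p = 5.32e-20). Of the 8 alternative end-joining genes 3 were called over the time course, beside 51.9% of all genes. All 3 were down at 24 h (Lig1, Polq and Fen1), beside 20.1% of all genes, with the largest fall for Lig1, the replicative DNA ligase (-2.94, adjusted p = 3.61e-23), against the rise of Lig4.

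Homologous recombination, which uses a sister copy as template, went lower as a list late in the time course. Of 19 genes tested 16 were called over the time course, beside 51.9% of all genes, and 14 were lower and 1 higher than 0 h by 24 h, beside 20.1% and 20% of all genes. At 2 h a single gene was called, Dna2 (-1.16), beside 6.91% of all genes called down and 6.25% up. Without the fold threshold 5 passed the test downwards and 8 upwards, beside 23.8% and 23.9% of all genes. The median of the list was 0.13 at 2 h and -1.88 at 24 h, beside 0.78 at 24 h for the 8 recombination and end-joining genes. Dna2, a nuclease that resects ends, fell most (-3.83, adjusted p = 4.1e-23), and Rad51d rose (1.38, adjusted p = 4.52e-14).

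**Figure D5:**
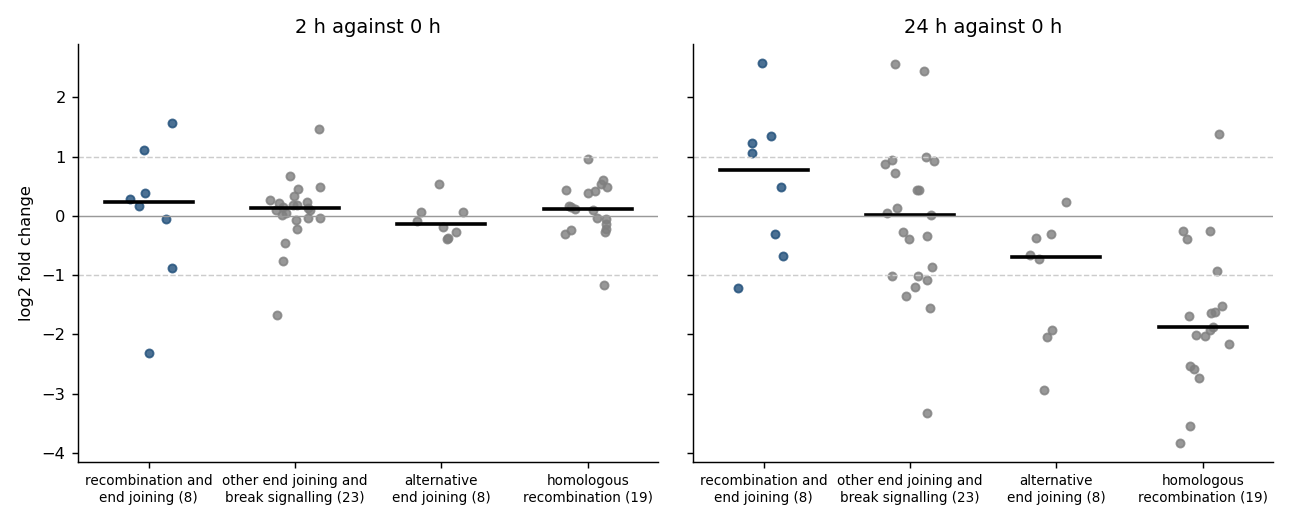
Log2 fold change at 2 h (left) and 24 h (right) against 0 h for each tested gene (points) of 4 lists, with the number of genes in brackets, black bars for medians and dashed lines at a fold change of 2. At 2 h the medians lie near 0 in all 4 lists, and at 24 h they are 0.78 for recombination and end joining, 0.01 for other end joining and break signalling, -0.70 for alternative end joining and -1.88 for homologous recombination.

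Of 17 genes known to regulate Rag transcription, all were tested and 11 called over the time course, beside 51.9% of all genes. At 2 h 5 were called lower (6.91% of all genes), and at 24 h 4 were lower (20.1%) and 6 higher (20%). Without the fold threshold 9 passed the test downwards and 7 upwards at 2 h (23.8% and 23.9% of all genes). At 24 h Ets1, an activator in lymphocytes, had the largest rise (3.46 ± 0.0580, adjusted p = 3.31e-22) and Gfi1b, a repressor of Rag transcription, the largest fall (-3.24 ± 0.120, adjusted p = 2.32e-16). Ikzf1, the gene of the induced factor, was at 0.18 at 2 h (adjusted p = 0.000312) and at 0.86 ± 0.0385 at 24 h (adjusted p = 6.55e-15), and reads from the cell's own gene and from the Ikaros-ERt2 construct cannot be told apart in this table. Since Rag1 and Rag2 had no counts, the regulators could not be set beside the genes they act on.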

How the data were processed

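Chromatin-associated RNA was measured in 20 libraries of B3 cells at 10 time points. The authors ran nf-core/rnaseq with STAR against mm10, assigned them to genes with featureCounts with introns included, and deposited raw counts with no normalization; the handling of strand and of reads shared by overlapping genes is not given in the sources used here. The kit keeps strand. CASAVA 2.17 is named in the submitters' processing notes. Every column matched a library by name and 0 were left unmapped.

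Counts were fitted with edgeR 4.0.16 in R 4.3.3 (TMM factors, time point as a factor, all 20 libraries), after dropping genes that reached 10 counts in fewer than 2 libraries. CPM used a prior count of 0.5 on the log2 scale. SE is the log2 fold change divided by the square root of the F statistic. DESeq2 1.42.0, its size factors, library totals, other filters, a replicate block, no fold threshold and leaving out each library were alternatives. The fit was tested on simulated counts. GENCODE M21 (GRCm38) gave gene positions and overlaps, and there 55240 of 56239 identifiers matched, and promoters from RefSeq (GRCm38.p6).

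All 10 members are named, with overlapping or neighbouring genes, the 5 genes most correlated with Dntt (1 of them is not reported here), Ikzf1, and from each list the largest rise and fall at 24 h among called genes; further genes were named after their values were seen. The members and lists were chosen with earlier results of these data known. Rag1 and Rag2 promoters were to be printed but were replaced, since both genes had no counts, and for the same reason no correlation was ranked for them. Libraries of a time point differed by a chi-square per degree of freedom of 1.25 to 14.9 (1.45 at 0 h), more than sampling noise, and were counted as 2 samples. Reads carry no molecular identifiers, so depth describes counting error only.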

Additional observations from a re-analysis of the deposited data

How the results depend on the processing

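Without the fold threshold, more of the 8 counted genes were called against 0 h, with 1 down and 1 up after 30 min, 2 and 3 after 1 h, 2 and 4 after 2 h, 2 and 5 after 6 h, 2 and 6 after 12 h, 2 and 5 after 15 h, 1 and 5 after 18 h, 2 and 5 after 21 h and 3 down after 24 h. Between successive time points the numbers without the threshold were 5 from 30 min to 1 h, 4 from 1 h to 2 h, 4 from 2 h to 6 h, 4 from 6 h to 12 h, 2 from 12 h to 15 h, 3 from 15 h to 18 h, 2 from 18 h to 21 h and 2 from 21 h to 24 h, and 7 for 24 h against 2 h and 7 against 6 h. All 23 other end-joining genes, 8 alternative end-joining genes and 17 regulators then passed over the time course, as did 88.0% of all genes. With library totals in place of TMM factors, 1 gene was called down at 21 h (Xrcc5, -1.15) instead of 0. Under that scaling 2 were up at 21 h instead of 3, and 2 were up at 24 h instead of 4. For 24 h against 2 h 1 was called instead of 3, and against 6 h 1 instead of 2. Nhej1 at 30 min was then at 0.003 instead of -0.005. The shares of all genes called with library totals are not given here. Leaving out single libraries turned the sign of 4 differences that had not passed the test, Xrcc4 at 1 h (-0.030 to 0.015) and Prkdc at 30 min (-0.004 to 0.054) and 18 h (-0.159 to 0.012) and Nhej1 at 30 min (-0.036 to 0.025), and the number called down at 15 h ran from 0 to 1, since Dntt passed the fold threshold without 0 h replicate 2 (-1.03) or without 15 h replicate 2 (-1.03). Same-numbered libraries deviated together in 3 of 45 pairs of time points (correlation over 0.1, with a range from -0.439 to 0.237 and a mean of -0.00137), so the replicate numbers were not taken as pairs. A batch shared by libraries of different replicate number was not tested. With the replicate block all 72 differences of the 8 genes from 0 h kept their direction and side of the adjusted p threshold, for example Lig4 at 24 h (2.58). With DESeq2 all 72 kept their direction and side of the adjusted p threshold, while Xrcc4 at 21 h also passed the fold threshold (1.01 instead of 0.99). At this depth Dntt, with 50 to 315 counts, was the least precisely measured, and Rag1 and Rag2 were not measured.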
